A study of Mus musculus with 14 samples.

Results

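Broad domains of H3K27me3 were described in mouse embryonic stem cells with and without a knockdown (kd) of Smarcb1. A domain is a control H3K27me3 island on chromosomes 1 to 19 and X whose end lies at least 20000 bp above its start. The rule selected 1714 of the 22900 control islands. These domains covered 56.2 Mb of the 195.3 Mb under H3K27me3 in control. Their median width was 27200 bp (quartiles 23000 and 35600 bp), and the widest measured 260400 bp. The domains were chosen by their width in the control list, so everything said of that width is a description.

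H3K27me3 is written by Polycomb Repressive Complex 2, whose catalytic subunit is Ezh2, and it marks silent chromatin. In embryonic stem cells it lies on CpG-rich starts of genes for later development, often together with H3K4me3, a mark of gene starts. H3K27ac sits on the same residue as H3K27me3 and marks active promoters and enhancers. BAF is an ATP-dependent chromatin remodelling complex with Smarca4 as its ATPase and Smarcb1 as a core subunit, and BAF and Polycomb complexes are known to oppose each other.

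The cells were 81K1, derived from the OG2 line through clone K1, with a cassette in the Rosa26 locus from which doxycycline induces an shRNA against Smarcb1. Control cells carried the same cassette and received no doxycycline, and kd cells were kept in 1 µg/ml doxycycline for 72 h. They grew on gelatine in medium with serum and LIF. For each of the 5 antibodies (H3K27me3, Ezh2, Smarca4, H3K4me3 and H3K27ac) there was 1 chromatin immunoprecipitation library per condition, so no difference between conditions could be tested against a replicate spread. By the study's methods, Smarca4 and H3K27me3 were processed by Active Motif and the other antibodies in the authors' laboratory and a core facility, so that antibodies and laboratories cannot be told apart. The labels differ from the methods here, since they name the core facility as the place of sequencing for all libraries. The files list called regions without read counts. The depth of each library is therefore unknown here, and a base without a call is not a measured absence. Ranges in brackets after a share of domains, peaks or genes are 95% Wilson limits, which reflect counting error alone. Smarcb1 expression itself was not analysed here.

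The cell type was checked on 10 stem cell genes and 8 genes of differentiated cells. Within 1 kb of the transcription start site (TSS), H3K4me3 was called at 9 of the 10 stem cell genes in both conditions, among them Pou5f1, Nanog and Sox2. H3K27ac was called at 6 of them in control and 9 after kd, and none had its TSS in a broad domain. H3K27me3 was called near Klf4 in control only and near Esrrb in both conditions, and Esrrb had neither H3K4me3 nor H3K27ac. All 8 genes of differentiated cells carried H3K27me3 near the TSS in both conditions and none carried H3K27ac. Of these, 7 had their TSS in a broad domain (Sox17, Gata4, Gata6, Pax6, Cdx2, Eomes and T), and Neurod1 did not.

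Sequences are shown from the middle of the strongest control Ezh2 peak in each of the 3 widest domains that held one, and from the middle of the 2 widest domains without any kd island. They show CpG content at strong Ezh2 peaks over coding exons beside intronic stretches without a called Ezh2 peak, so exon and peak cannot be told apart. All are the upper strand of GRCm38, with every CpG in capitals. The Hoxc8 sequence (chr15:102990780-102990946) overlaps a coding exon of Hoxc8 and is 167 bases long, since annotated UTR bases were left out. The Cdkn1c sequence (chr7:143460098-143460297) overlaps coding exon sequence of Cdkn1c, an imprinted inhibitor of the cell cycle, and an exon of Gm44732. The Hoxa4 sequence (chr6:52190986-52191185) overlaps a coding exon of Hoxa4. The Megf6 sequence (chr4:154230801-154231000) and the Atp2c2 sequence (chr8:119744001-119744200) are intronic. Repeat-masked bases make up 50% of the Megf6 sequence and 0% of the others.
Hoxc8: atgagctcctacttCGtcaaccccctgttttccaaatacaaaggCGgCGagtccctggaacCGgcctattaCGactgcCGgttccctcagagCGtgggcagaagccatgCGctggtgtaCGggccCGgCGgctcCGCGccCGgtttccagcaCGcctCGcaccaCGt
Cdkn1c: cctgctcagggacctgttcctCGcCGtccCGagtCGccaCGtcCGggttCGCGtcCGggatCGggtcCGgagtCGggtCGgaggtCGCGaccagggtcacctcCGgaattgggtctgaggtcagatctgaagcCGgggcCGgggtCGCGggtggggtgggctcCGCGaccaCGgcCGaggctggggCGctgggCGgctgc
Hoxa4: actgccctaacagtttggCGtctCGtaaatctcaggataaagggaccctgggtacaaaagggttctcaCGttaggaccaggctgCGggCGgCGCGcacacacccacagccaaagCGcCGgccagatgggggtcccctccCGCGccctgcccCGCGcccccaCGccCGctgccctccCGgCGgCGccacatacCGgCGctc
Megf6: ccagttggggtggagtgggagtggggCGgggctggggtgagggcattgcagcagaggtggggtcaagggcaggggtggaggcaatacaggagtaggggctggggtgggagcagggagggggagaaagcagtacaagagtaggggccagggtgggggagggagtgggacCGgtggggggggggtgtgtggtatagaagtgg
Atp2c2: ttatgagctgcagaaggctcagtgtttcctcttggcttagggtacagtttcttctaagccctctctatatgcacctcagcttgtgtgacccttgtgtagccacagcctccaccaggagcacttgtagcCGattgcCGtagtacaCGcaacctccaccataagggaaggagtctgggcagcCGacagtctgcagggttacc
The Hoxc8 sequence held 17 CpG, the Cdkn1c sequence 26 and the Hoxa4 sequence 20, against 2 in the Megf6 sequence and 4 in the Atp2c2 sequence. In CpG per kb these are 101.8, 130 and 100 against 10 and 20. Over all broad domains the density was 16.4 CpG per kb, against 8.34 on the 20 chromosomes and 15.2 in narrower H3K27me3 islands. All Ezh2 peaks of these chromosomes together held 60.1 CpG per kb in control and 75.7 after kd.

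Broad domains held the starts of many genes that direct development, beside those of many other genes. A protein-coding TSS lay in 1136 of the 1714 domains (66.3%, 64.0 to 68.5%), against 22.4% of the narrower islands. Per length the order was the opposite, with 29.0 protein-coding TSS per Mb of domain and 36.9 per Mb of narrower island. A further 291 domains lay over a protein-coding gene body without its TSS, and 287 lay outside protein-coding genes. In all, 1629 of 21755 protein-coding genes started in a domain, which is a background of 7.49% against which gene groups can be read. Most of them, 1273, were in none of the gene lists used here. Of the 19743 genes in no list, 6.45% started in a domain. All 39 Hox genes of the 4 clusters did so, as did 99 of 137 other homeobox genes. The share was 14 of 19 for Wnt ligands, 10 of 17 for T-box factors and 5 of 6 for Gata factors. It was 8 of 19 for Sox factors and 18 of 44 for forkhead factors. Narrower islands held the starts of 27 other homeobox, 5 Wnt, 3 T-box, 0 Gata, 5 Sox and 16 forkhead genes. Genes of the nervous system were held too, with 37 of 138 genes of potassium, calcium and sodium channels and 25 of 57 clustered protocadherins. The share was 16 of 67 for ephrins, semaphorins, netrins and slits and 9 of 49 for glutamate and GABA receptors. Narrower islands held the starts of 64, 24, 39 and 30 genes of these lists, in this order. At the other end, 0 of 1093 olfactory receptor genes, 0 of 75 ribosomal protein genes and 0 of 12 genes of Polycomb Repressive Complex 2 started in a domain.

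After Smarcb1 kd, 70.0% of the bases in broad domains were still under an H3K27me3 island (39.4 Mb kept, 16.9 Mb not). The median domain kept 73.6% of its bases, with quartiles of 52.3 and 91.0%. At least 50% of the bases were kept in 1323 domains (77.2%, 75.1 to 79.1%), against 48.6% of all control islands and 46.3% of the narrower ones. At least 95% were kept in 274 domains (16.0%, 14.3 to 17.8%), which is below the 20.1% of narrower islands. No kd island at all was held by 103 domains (6.01%, 4.98 to 7.24%), against 47.2% of narrower islands. Across all control islands the kept share followed the width: it was 29.9% below 2 kb, 57.5% between 10 and 20 kb, 65.5% between 20 and 30 kb, 71.3% between 30 and 50 kb, 74.1% between 50 and 100 kb and 89.4% in the 19 domains of 100 kb or more. The 20 kb limit itself marked no step, since the 100 narrowest domains kept 58.2% of their bases and the 100 widest islands below the limit 65.1%. The kd list was shorter as a whole, with 18311 islands over 144.8 Mb.

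**Figure D1:**
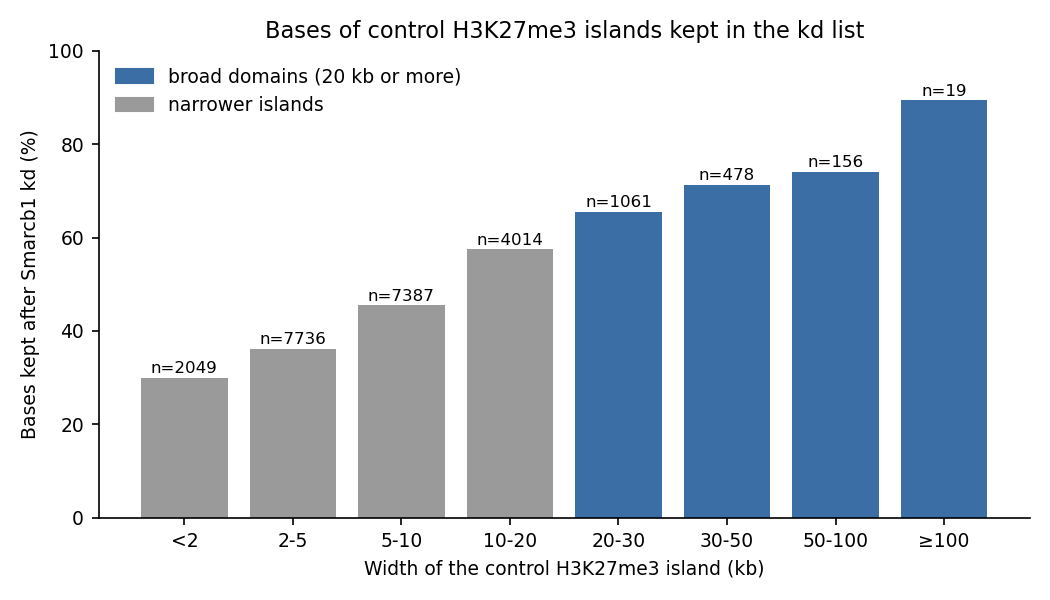
Bars give the percentage of bases of control H3K27me3 islands that also lay in a kd island, by island width in kb, with n islands per class; blue bars are the broad domains. The share is 29.9% in the narrowest class and 89.4% in the widest.

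The domains were picked in the control list, so the same width rule was also put on the kd list, which gave 926 islands over 28.6 Mb. Of their bases, 90.7% lay in a control island, against 69.1% of the bases of narrower kd islands. At least 50% of the bases lay in the control list in 882 broad kd islands (95.2%, 93.7 to 96.4%). Control domains thus kept 70.0% of their bases after kd, whereas broad kd islands had 90.7% of theirs in control. The whole lists showed the same order, with 54.4% of all control bases in kd and 73.3% of all kd bases in control. Of the 926 broad kd islands, 725 overlapped a broad control domain, 21 joined 2 or more of them, and 21 overlapped no control island. Of the 1714 control domains, 669 still held an uninterrupted kd stretch of 20 kb or more.

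Domain bases not kept lay mainly at the ends. Ends accounted for 67.7% of them (11.4 Mb), domains without any kd island for 15.8% (2.66 Mb), and gaps between kd islands for 16.5% (2.78 Mb). In 10 equal parts of a domain, from the lower to the upper end, the kept share was 48.3, 67.8, 74.9, 79.7, 79.8, 79.6, 78.9, 74.4, 67.5 and 49.3%. Broad kd islands showed the same shape in the control list at higher values, from 81.2% in the lowest part and 81.7% in the highest to 95.1% in the middle. Gaps split 664 domains into 2 or more kd islands (38.7%, 36.5 to 41.1%), against 5.85% of all control islands. The split share rose with the width up to 100 kb. It was 9.57% between 10 and 20 kb, 29.0% between 20 and 30 kb, 48.5% between 30 and 50 kb and 71.2% between 50 and 100 kb. In the 19 domains of 100 kb or more it was 68.4%. With H3K27me3 islands at -log10 p of at least 20, 24.96% of domains were split. Of the split domains, 493 had 2 pieces, 133 had 3 and 38 had 4 or more. Most gaps were short: the 888 gaps had a median of 1200 bp (quartiles 800 and 3800 bp) and reached 32200 bp. SICER joins windows over gaps of up to 600 bp, so a single missing window more can separate 2 islands.

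The bases around Ezh2 peaks were kept most often. In the domains with a control Ezh2 peak, 97.9% of the bases within 1 kb of a peak were kept, 96.4% at 1 to 2 kb, 92.4% at 2 to 5 kb, 77.4% at 5 to 10 kb, 62.2% at 10 to 20 kb and 60.1% beyond 20 kb. In the domains with a protein-coding TSS the slope around the TSS was flatter, from 86.8% within 1 kb to 62.9% beyond 20 kb. These slopes come from different sets of domains, and the part of that in the difference was not tested.

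**Figure D2:**
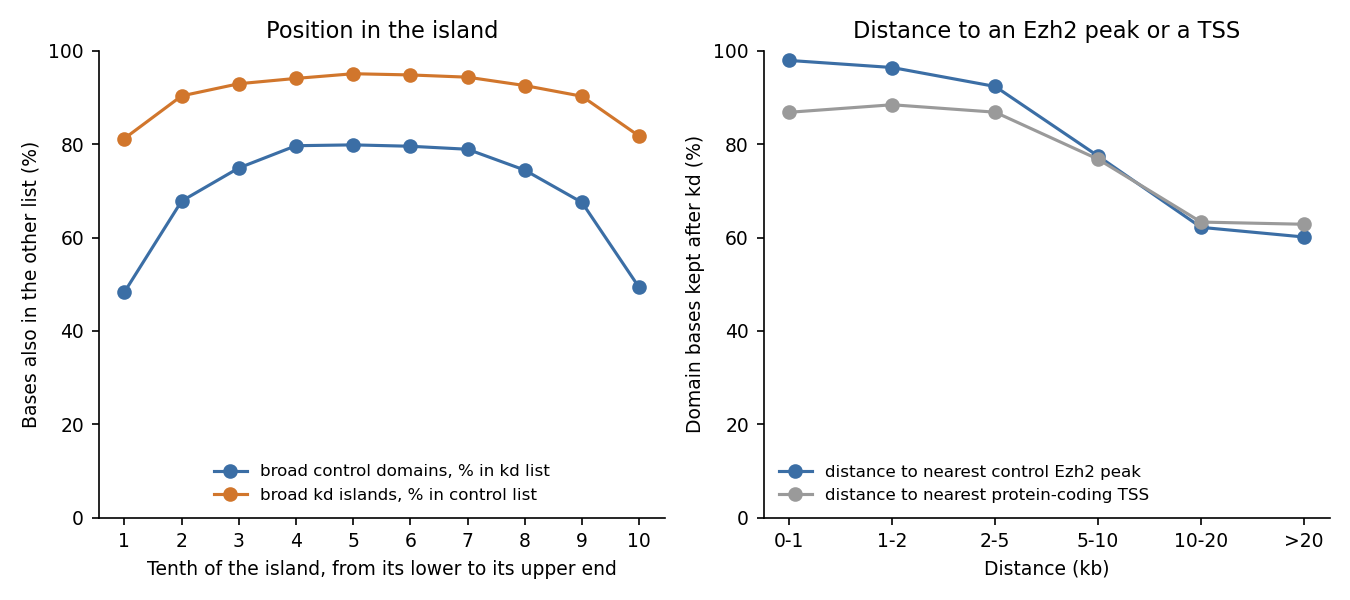
The left panel gives the percentage of bases also found in the other condition's list for each of 10 equal parts of broad control domains (blue) and of broad kd islands (orange). The right panel gives the percentage of domain bases kept after kd by distance in kb to the nearest control Ezh2 peak (blue) or protein-coding TSS (grey). Each line of the right panel covers only the domains that hold such a peak or TSS. Kept shares are lowest in the outer parts (48.3 and 49.3%) and highest within 1 kb of an Ezh2 peak (97.9%).

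Of the 10 widest domains, 4 held a Hox cluster, and these 4 were kept nearly whole. The Hoxc domain (chr15:102898601-103159000, 260400 bp) holds 9 protein-coding TSS of genes that set position along the body axis. It kept 96.9% of its bases in 2 kd islands. It held 30 Ezh2 peaks over 17519 bp in control and 40 over 37168 bp after kd. The bases under Smarca4 peaks were 17950 in control and 12001 after kd. H3K4me3 lay over 8200 and 15000 bp. H3K27ac was called in neither condition.

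The other Hox clusters were kept to a like degree. The Hoxa domain (chr6:52141201-52329800, 188600 bp) kept 96.2% in 4 pieces and held 29687 bp under Ezh2 peaks in control and 53907 bp after kd. In the Hoxb domain (chr11:96241601-96392600, 151000 bp) 96.3% was kept, with Ezh2 over 25147 and 35780 bp. The Hoxd domain (chr2:74642601-74780600, 138000 bp), which also holds Evx2, kept 99.3%, with Ezh2 over 25329 and 41567 bp. Hoxb13 started in a domain of its own of 91000 bp, of which 80.7% was kept. Ezh2 covered more bases after kd in all 4 clusters, and H3K27ac was called in none of them. Within 1 kb of the 39 Hox TSS, Ezh2 was called at 32 genes in control and 36 after kd, Smarca4 at 34 in both, H3K4me3 at 13 and 21, and H3K27ac at 0 and 0. The TSS base of 38 Hox genes was still in a kd island. The exception was Hoxa13, whose start fell in a gap of the Hoxa domain and had an Ezh2 peak and H3K4me3 within 1 kb in both conditions.

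The domain of Cdkn1c, Phlda2 and Slc22a18 (chr7:143298001-143505600, 207600 bp), imprinted genes of growth control and transport, kept 99.9% as 1 stretch. It held 5 Ezh2 peaks in each condition, over 5041 bp in control and 7247 bp after kd. The domain of Rhcg, an ammonium transporter (134200 bp), kept 94.5%, with Ezh2 over 5712 and 8991 bp. The domain of Zfpm1, a cofactor of Gata factors, and Trhr2 (chr8:122214401-122374600, 160200 bp) kept least among the 10 widest, at 40.3% in 4 pieces. Its Ezh2 peaks nevertheless covered 2546 bp in control and 4996 bp after kd.

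Domains split into many pieces were kept in large part. The domain of Adgrb2, Col16a1 and Pef1 (chr4:129938201-130106200, 168000 bp) was split into 8 kd islands that kept 77.4% of it. Its Smarca4 peaks covered 20491 bp in control and 11879 bp after kd, while Ezh2 covered 1786 and 2856 bp. The domain of Efnb1, a ligand in axon guidance (109200 bp on chromosome X), also had 8 pieces and kept 83.3%, although the Efnb1 TSS itself was in no kd island. Sfmbt2, a Polycomb-group gene that is imprinted, lay in a domain of 63600 bp with 7 pieces and 79.2% kept. Tac4 and the region nearest to Rbm19 followed with 5 pieces each, keeping 76.5 and 88.6%.

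**Figure D3:**
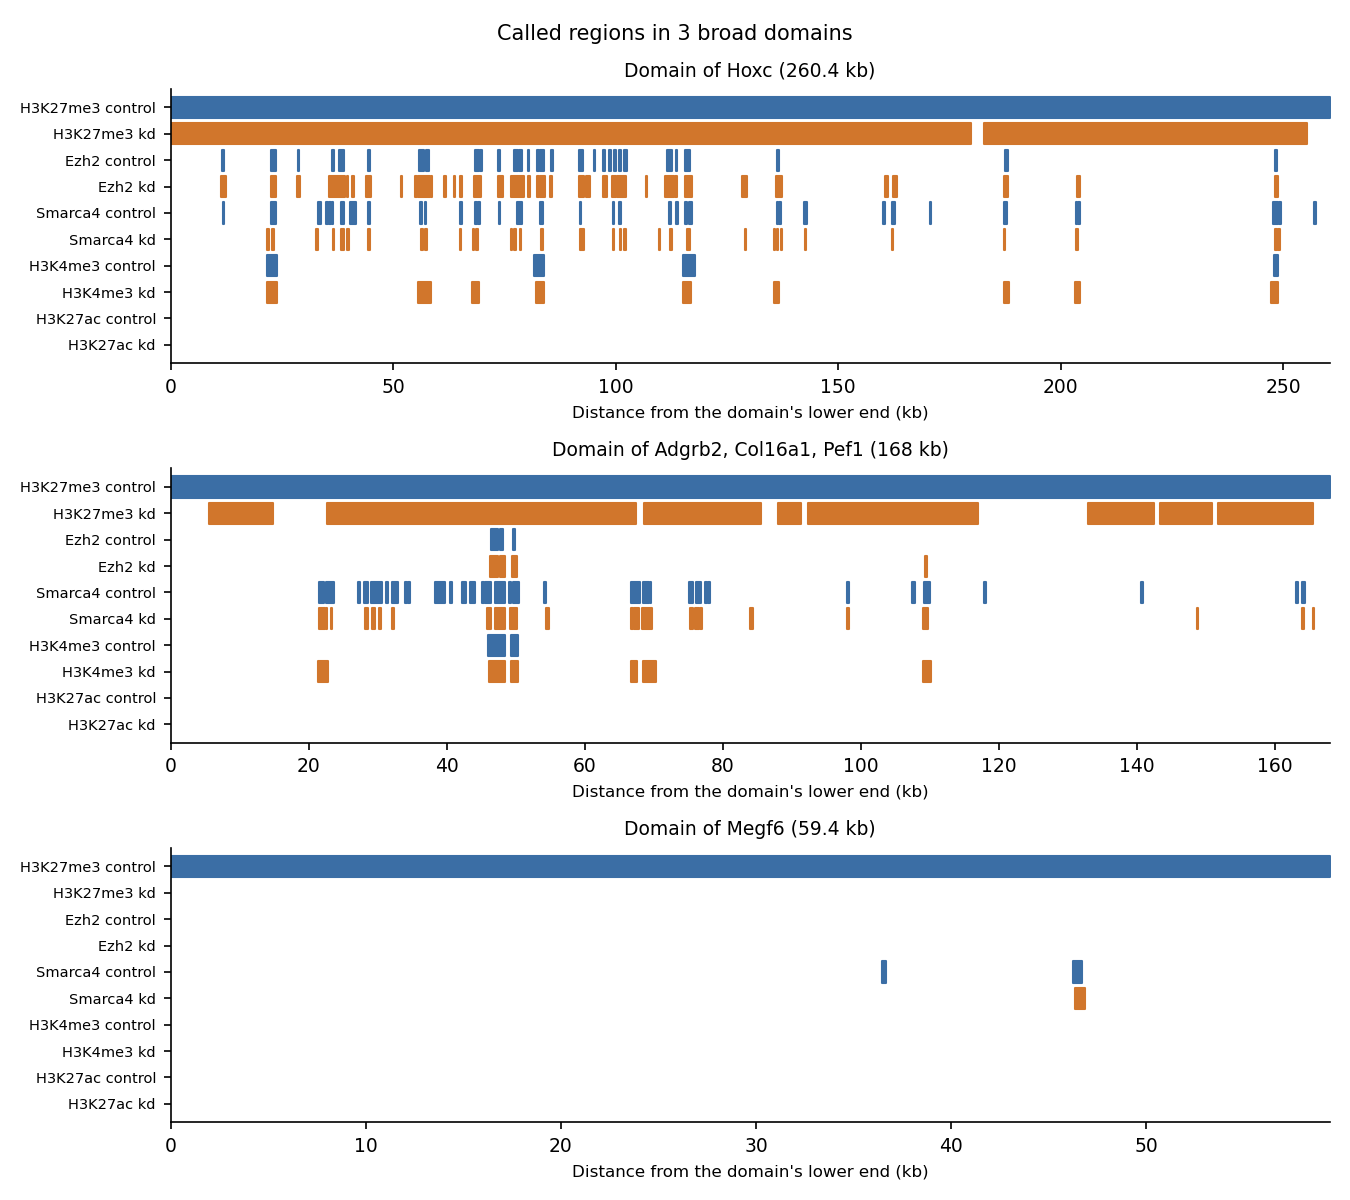
Called regions of 5 antibodies in control (blue) and after kd (orange) are drawn along 3 broad domains, with distance from the domain's lower end in kb on the x axis. The Hoxc domain keeps 96.9% of its H3K27me3 in 2 pieces beside 30 and 40 Ezh2 peaks, the Adgrb2 domain keeps 77.4% in 8 pieces, and the Megf6 domain has neither H3K27me3 after kd nor an Ezh2 peak.

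The 103 domains without a kd island held few gene starts and few Ezh2 peaks. Only 22 of them held a protein-coding TSS (21.4%), against 216 of the 274 domains that kept at least 95% (78.8%). An Ezh2 peak was called in 4 of them in control and in 1 after kd, against 201 of the 274 (73.4%) in control. H3K27ac was called in 6 of the 103 in control and 26 after kd, against 9.74 and 30.6% of all broad domains. Smarca4 was called in 64 and 62 of them, against 92.4 and 91.0% of all broad domains. Their CpG density was 14.3 per kb, against 18.5 per kb in the domains kept at 95% or more. In 58 of the 103 the domain lay over a gene body only. The widest was in Megf6 (chr4:154201201-154260600, 59400 bp), a gene for an EGF-repeat protein, with 2 Smarca4 peaks in control and 1 after kd and no other region. The domain over Atp2c2, a calcium pump, and Tldc1 (chr8:119718801-119769400, 50600 bp) held 3 Smarca4 peaks in control and 0 after kd. The next was the domain of Acsf3 (45200 bp), which encodes an acyl-CoA synthetase of mitochondria, with 0 Smarca4 peaks in control and 6 after kd. The domain over Unc5a, a netrin receptor, and Hk3, a hexokinase (39200 bp), the one over Uvssa (35600 bp), the one over Stk32c (35400 bp) and the one nearest to Tas1r2 (35800 bp) had no Ezh2 peak in either condition. Another 3 of the 10 widest lay inside Gm20388, an annotation that spans 4.43 Mb of chromosome 8, and measured 38600, 37800 and 34800 bp.

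Strength of the control call moved with this result. The deposited p-value of the island was 0, the smallest that can be written, in 1265 domains (73.8%) but in only 4 of the 103 without a kd island. Domains with a p-value of 0 kept 76.8% of their bases and the other 449 kept 42.6%. Within each of these classes, domains with a control Ezh2 peak kept more: 80.4% against 69.2% where the p-value was 0, and 52.4% against 41.4% where it was above 0. Chromosome 8 held 163 domains, of which 24 had no kd island (14.7%), against 5.09% of the domains on the other chromosomes, and its domains kept the least of any chromosome at 63.1%. The part of island strength and of chromosome 8 in the loss was not tested.

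Ezh2 was called in 866 domains in control (50.5%, 48.2 to 52.9%) and in 1005 after kd (58.6%, 56.3 to 60.9%). Among the narrower islands these shares were 8.23 and 11.4%. A peak was called after kd but not in control in 212 domains (12.4%), against 6.57% of all control islands, and in control but not after kd in 73 (4.26%), against 3.05%. The covered bases differed more than the number of peaks. Ezh2 peaks covered 2.999% of domain bases in control and 4.99% after kd, with 38.6 and 41.8 peaks per Mb. In narrower islands they covered 0.867 and 1.77% of the bases, with 14.8 and 20.0 peaks per Mb. The median peak in a domain was 560.5 bp wide in control and 861 bp after kd. Of the 1078 domains with Ezh2 in either condition, 970 had more Ezh2 bases after kd (90.0%, 88.0 to 91.6%). Of such narrower islands, 78.3% did (76.8 to 79.7%). The ratio of total Ezh2 bases after kd to control was 1.66 in broad domains, 2.04 in narrower islands and 1.47 over the 20 chromosomes, so wider Ezh2 calls after kd were not particular to broad domains.

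The control peaks inside broad domains recurred more often than those elsewhere. Of the 2170 control Ezh2 peaks there, 87.5% (86.1 to 88.8%) overlapped a kd peak, against 30.3% of the control peaks elsewhere. Of the kd peaks in domains 63.5% overlapped a control peak, against 40.5% elsewhere. Repeat-masked sequence moved with this difference, since 11.2% of the control peaks in domains were mostly repeat-masked against 62.6% elsewhere. After kd, 43.8% of all Ezh2 peaks lay in broad domains, against 32.4% in control.

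Domains with Ezh2 kept more H3K27me3. Those with a peak in both conditions (793) kept 81.0% of their bases, those with a peak after kd only (212) 72.1%, those with a control peak only (73) 58.1% and those without a peak (636) 52.5%. Of the 103 domains without a kd island, 99 belonged to the last group. The order also held apart from gene starts. Domains with a TSS kept 80.1% where Ezh2 was called in control and 64.3% where it was not, and domains without a TSS kept 75.1 and 51.3%. Width moved with these groups, with medians of 30000 bp for Ezh2 in both conditions and 24800 bp for neither. In 4 equally large classes of CpG density, from low to high, domains kept 63.1, 63.1, 71.5 and 81.8% of their bases, and Ezh2 was called in control in 25.9, 38.1, 61.0 and 77.2% of them.

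**Figure D4:**
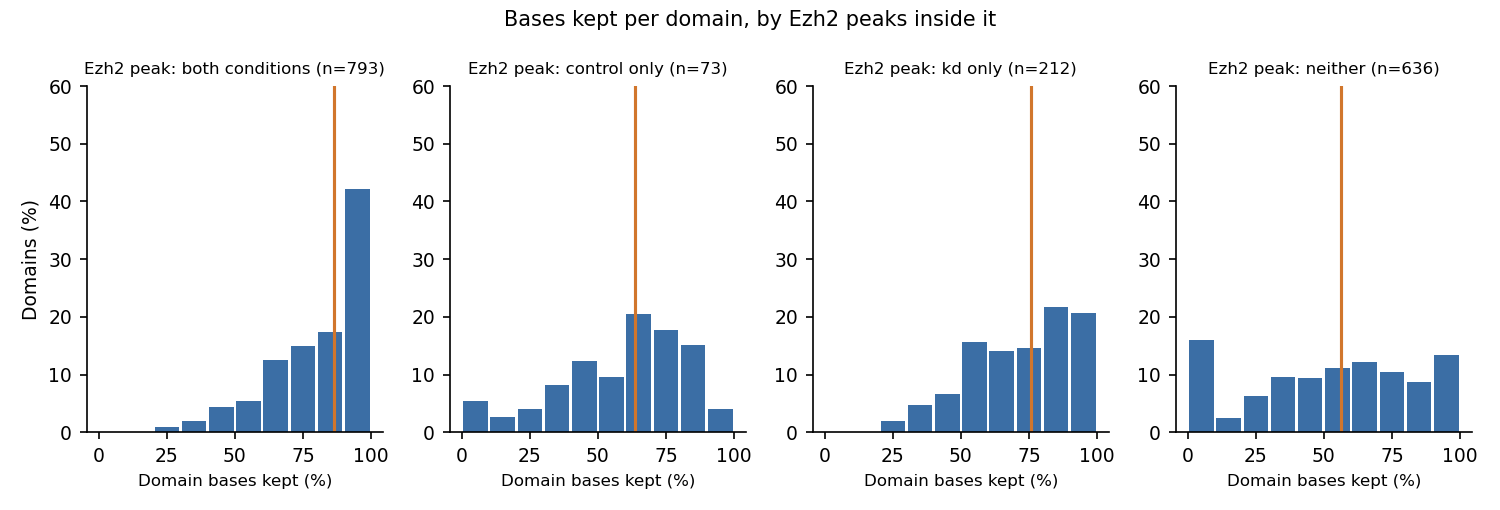
Each panel is a histogram of the percentage of bases a domain kept after kd (x axis, bins of 10 points) as a percentage of the domains in that panel (y axis), by whether an Ezh2 peak was called in both conditions (793), control only (73), kd only (212) or neither (636); the orange line is the median. Domains with Ezh2 in both conditions pile up near 100%, and the domains that kept nothing lie almost all in the panel without Ezh2.

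Smarca4 lay in nearly all broad domains, in 1584 in control (92.4%, 91.1 to 93.6%) and in 1560 after kd (91.0%, 89.6 to 92.3%). The narrower islands had 44.0 and 40.6%, but a wider island offers more room for a call. Peaks covered 10.4% of domain bases in control and 7.70% after kd, with 9031 and 7835 regions counted in domains. In narrower islands they covered 8.23 and 6.12% of the bases. Per Mb there were 160.6 and 139.3 peaks in domains and 131.5 and 112.9 in narrower islands. Smarca4 was called after kd only in 49 domains (2.86%), against 5.22% of all control islands, and in control only in 73 (4.26%), against 8.44%. Where it was called in either condition, 1236 of 1633 domains had fewer Smarca4 bases after kd and 395 had more (24.2%). Narrower islands went the same way, with 6954 of 10466 having fewer and 3482 more (33.3%). The ratio of total Smarca4 bases was 0.738 in broad domains, 0.744 in narrower islands and 0.823 over the 20 chromosomes. Smarca4 covered 12.9% of the kept domain bases in control and 4.62% of the bases not kept.

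H3K4me3 was called in 1054 domains in control (61.5%, 59.2 to 63.8%) and in 1256 after kd (73.3%, 71.1 to 75.3%). An island was called after kd only in 212 domains (12.4%), against 6.48% of all control islands, and in control only in 10 (0.583%), against 0.86%. It covered 6.29% of domain bases in control and 8.001% after kd, a ratio of 1.27, against 1.10 in narrower islands and 1.33 over the 20 chromosomes. In narrower islands H3K4me3 covered 6.52 and 7.18% of the bases. Per Mb there were 25.9 and 38.6 H3K4me3 islands in domains and 34.7 and 44.2 in narrower islands. Of the domains with H3K4me3 in either condition, 58.6% had more H3K4me3 bases after kd (55.9 to 61.3%), against 41.6% of such narrower islands. Domains with H3K4me3 in both conditions kept 77.0% of their H3K27me3 bases, those with it after kd only 66.0% and those without it 51.5%.

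H3K27ac was rare in broad domains in control and was called in more of them after kd. It was called in 167 domains in control (9.74%, 8.43 to 11.2%) and in 524 after kd (30.6%, 28.4 to 32.8%). In 398 domains (23.2%) it was called after kd only, against 10.8% of all control islands, and in 41 (2.39%) in control only, against 1.76%. A wider island offers more room for a call, and per base the order of domains and narrower islands was the opposite. H3K27ac covered 0.538% of domain bases in control and 2.61% after kd, against 1.16 and 3.30% in narrower islands and 6.06 and 6.61% of the 20 chromosomes. With H3K27ac islands at -log10 p of at least 10 the domain values were 0.233 and 1.48%, and on bases outside repeats they were 0.329 and 2.05%. The ratio of H3K27ac bases after kd to control was 4.84 in broad domains, 2.84 in narrower islands and 1.09 over the 20 chromosomes. H3K27ac after kd was not limited to the bases without H3K27me3, of which it covered 3.14%, since it also covered 2.38% of the kept bases. Domains with H3K27ac after kd only kept 67.6% of their H3K27me3 bases and domains without it in either condition 70.6%.

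**Figure D5:**
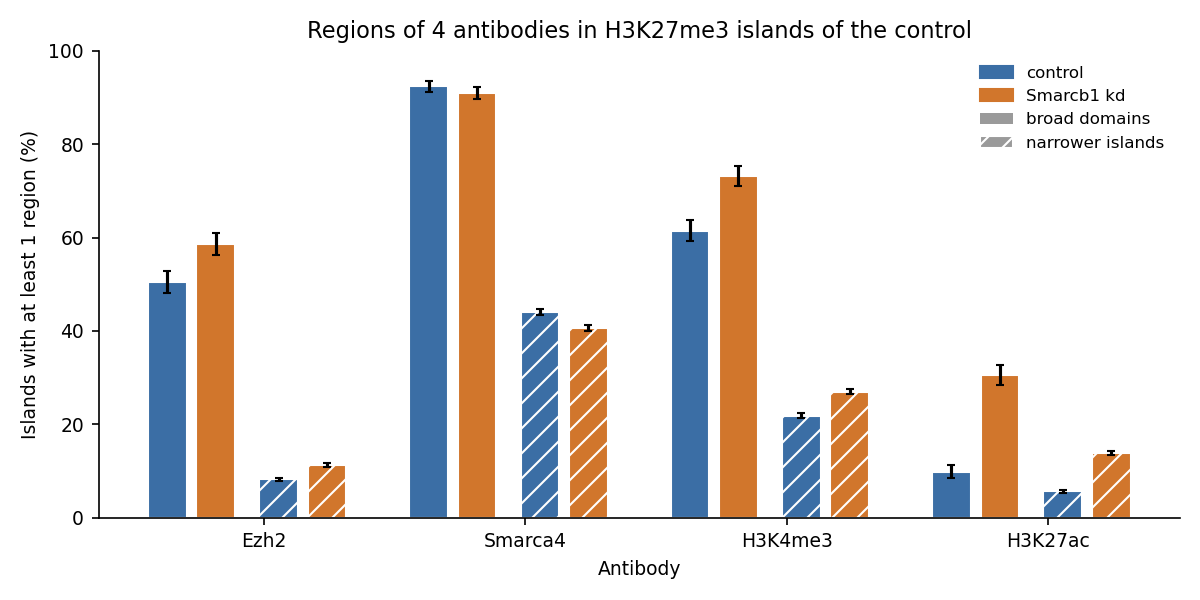
Bars give the percentage of control H3K27me3 islands with at least 1 called region of each antibody in control (blue) and after kd (orange), for broad domains (plain) and narrower islands (hatched); error bars are 95% Wilson intervals. H3K27ac is called in 9.74% of broad domains in control and in 30.6% after kd, while Smarca4 is called in 92.4 and 91.0%. Broad domains are wider and so offer more room for a call than narrower islands.

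The 5 domains with the largest increase in H3K27ac bases differed in what else they carried. The domain nearest to Pdia4 (chr6:47737001-47778400, 41400 bp) had 0 bp of H3K27ac in control and 41200 bp after kd, and the one nearest to the Ezh2 gene itself (chr6:47642601-47687200, 44600 bp) had 0 and 40000 bp. Both also lay almost wholly under H3K4me3, over 40200 and 41200 bp in control, and kept 100 and 99.6% of their H3K27me3. A domain over the body of Chd9, a chromodomain remodeller (chr8:90837401-90870400, 33000 bp), had 3200 and 26800 bp of H3K27ac and kept no H3K27me3. A domain over Gse1 (78600 bp, 66.2% kept) had 1200 and 19800 bp. The domain of the metallothionein genes Mt1 and Mt2, which bind heavy metals (25000 bp), had 400 and 17600 bp and kept 96%. In the opposite direction, the domain of Tfap2a, a transcription factor of neural crest and skin, had 5000 bp in control and 0 after kd, and kept 95.9% of its 53800 bp. The other 4 of the 5 largest decreases lay near Ankle1 (10600 and 4400 bp), in Ank2 (6200 and 0 bp), near Nfe2l3 (4400 and 0 bp) and near Gm20219 (6800 and 3000 bp). In 7 domains H3K27ac after kd covered at least 50% of the bases, and without them it covered 0.489% of domain bases in control and 2.31% after kd.

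A few domains consisted mostly of repeat-masked sequence. At least 50% of the bases were repeat-masked in 5 domains, among them the one nearest to Atg7 (chr6:114485001-114641800, 156800 bp, 72.8% masked) and the one that holds Rhou (chr8:123520601-123658800, 138200 bp, 62.7% masked). The Rhou domain holds 51 of the 345 annotated rRNA genes. It had 63100 bp under Ezh2 peaks in control and 83045 bp after kd, the most of any domain, and 92800 bp under H3K4me3 in control. The domain near Atg7 had 29 Smarca4 peaks in control and 104 after kd and no protein-coding TSS. By the study's methods only uniquely aligned reads were kept, and how much of these repeats such reads can cover was not tested.

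At the gene starts inside broad domains, H3K27me3 was mostly kept. The TSS base was still in a kd island for 1383 of 1629 genes (84.9%, 83.1 to 86.6%), against 70.1% of the TSS in any control island and 65.3% in the narrower ones. Within 1 kb, Ezh2 was called at 39.5% of these TSS in control and 52.2% after kd. It was called after kd only at 219 (13.4%), against 5.83% of all protein-coding genes. H3K4me3 was called at 56.2 and 68.6%, with 226 after kd only (13.9%), against 4.62% of all genes. H3K27ac was called at 1.41 and 10.9%, with 159 after kd only (9.76%), which is below the 16.9% of all genes. Smarca4 was called at 79.1 and 78.6%.

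The 246 TSS no longer in a kd island differed in these marks from the 1383 that were. Ezh2 was called in control near 14 of them (5.69%, 3.42 to 9.32%) against 45.6% (42.9 to 48.2%). H3K27ac was called after kd but not in control near 50 (20.3%, 15.8 to 25.8%) against 7.88% (6.58 to 9.42%). Over all protein-coding genes this share was 16.9%, within the limits of the 246 TSS and above those of the 1383. H3K4me3 was called after kd only near 6.10 and 15.3%, against 4.62% of all genes. The gene lists used here together had 356 genes in domains, of which 345 were still in a kd island at the TSS.

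The listed genes whose TSS was in no kd island, 11 in all, had varied roles. Hoxa13 and Efnb1 are described above. Bmi1 and Pcgf1 are subunits of Polycomb Repressive Complex 1, which binds H3K27me3. The Bmi1 domain of 37200 bp kept 96.8%, and H3K27ac was called near the Bmi1 TSS after kd only. The Pcgf1 domain of 20200 bp kept 88.1%. Cbx2 and Cbx8, further subunits of this complex, shared 1 domain of 118200 bp with 91.2% kept. Gbx2 and Prrx2 are homeobox genes in domains of 24600 and 49600 bp that kept 77.2 and 62.9%, and H3K27ac was called near Gbx2 after kd only. Also among them were the ligands Wnt8a and Gdf1, the protocadherin Pcdhga8 and the BAF subunit Brd7. Of these, Gdf1 lay in a domain of 20400 bp that kept 0 bp, and H3K27ac was called near its TSS after kd only.

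Over all protein-coding TSS in domains, 84.9% were kept, against which the following counts can be read. Among signalling ligands, 13 of the 14 Wnt genes and 5 of the 6 BMP and Gdf genes in domains kept H3K27me3 at the TSS. Wnt1 and Wnt10b shared a domain of 49400 bp with 98.8% kept, and Wnt6 and Wnt10a one of 52200 bp with 99.2% kept. H3K4me3 was called near 8 of the 14 Wnt TSS in control and 12 after kd, against 56.2 and 68.6% of all TSS in domains. Ezh2 was called near 12 in both conditions, against 39.5 and 52.2%. Both Hedgehog ligands in domains, Shh and Ihh, were kept at the TSS, with 91.4 and 87.6% of their domains. Of the 7 Fgf ligands in domains, all 7 were kept at the TSS, and Fgf3 gained an H3K27ac call after kd. Among lineage factors, all 10 T-box genes, 8 Sox genes, 5 Gata genes, 18 forkhead genes and 20 bHLH genes in domains were kept at the TSS. Their domains varied, from 24.9% kept for Ascl5 and 42.7% for Gata5 to 100% for Tbx15, Tbx18, Sox14 and Sox17. H3K27ac was called after kd only near Tbx3, Sox1, Hand2 and Foxd1, each with H3K27me3 still at the TSS. All 37 channel genes in domains were kept at the TSS, and H3K27ac was called near 1 of them in control and 8 after kd, among them Scn8a and Cacna1h. Over all protein-coding genes H3K27ac was called after kd near 31.2% of TSS, and over all TSS in domains near 10.9%. The 25 clustered protocadherins in domains, cell adhesion genes of neurons, had Ezh2 near 0 TSS in control and 5 after kd, and Smarca4 near 15 and 22. Over all TSS in domains, Ezh2 was called after kd only near 13.4% and Smarca4 near 3.81%, and over all protein-coding genes near 5.83 and 3.72%.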

How the data were processed

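Control and kd samples were grouped by their labels (10 libraries with lists, 4 background samples). Per the labels and methods, the authors trimmed reads (Trim Galore), aligned them to mm10 (Bowtie2, both from the submitters' processing notes), kept unique alignments with SAMtools 1.9 and called each library alone, against input by the methods and IgG by the labels. They called Ezh2 and Smarca4 with MACS2, and the deposited score is its peak score. They called the histone marks with SICER (200 bp windows, 600 bp gaps), and the deposited p-value is its island p-value, which the authors had filtered at 1e-05 for H3K27ac and 1e-10 otherwise. Depth is unknown. The 9 islands on Y fell outside the rule. The authors' differential calls were not used.

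The end of each island was taken to be part of it. Overlaps (at least 1 bp) were computed in Python 3.11.15 with numpy 2.4.6 and pandas 2.3.3, checked on simulated intervals. Genes came from GENCODE M21 and sequence from GRCm38, whose lower-case bases are called repeat-masked. Domains and gene lists were chosen with earlier results of these data known. Named domains are the 10 widest, the 5 widest kept at 95% or more, the 10 widest kept under 5%, the 5 with most pieces, the 5 with most Ezh2 bases in each condition, the 5 largest H3K27ac increases and decreases, and the 3 on each side of the width limit. They are named by TSS inside, else by gene body, else by nearest TSS. Shares of bases carry no interval, since bases of 1 library are not independent. No test between conditions was made. Some genes are not reported here.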

Additional observations from a re-analysis of the deposited data

How the results depend on the processing

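No paired analysis was possible because each antibody had 1 library per condition, and for the same reason no replicate could be left out. The 13 results were recomputed under 17 other settings, each for the results it touches, which gave 51 values and 9 more from settings chosen after the data were seen. A value was taken as moved when it left the 95% Wilson interval of the value in the report, with the number of domains as n for shares of bases; 29 moved and 31 did not, and none changed which condition was higher. With domains of at least 30000 bp, 73.8% of bases were kept, 82.4% of domains kept at least 50%, 54.5% were split, Ezh2 was called in 65.1% in control and 71.7% after kd, Smarca4 in 96.6 and 95.7%, and a TSS lay in 75.2%. With H3K27me3 islands at -log10 p of at least 20, these shares were 65.2% of bases kept, 70.7% of domains at least 50% kept and 24.96% split. With islands joined over gaps of up to 2000 bp there were 2389 domains, 62.6% of bases kept, 66.8% of domains at least 50% kept and 28.3% split. Without chromosomes 8 and X, 92.5% of broad kd bases lay in control. At least 25% was kept in 91.1% of domains and at least 75% in 48.4%. With peaks of score 50 or more, Ezh2 was called in 44.6 and 55.9% and Smarca4 in 87.6 and 82.2% of domains, and with peaks mostly outside repeats Ezh2 in 46.3% in control. With stricter islands, H3K4me3 covered 5.25% of domain bases in control, and H3K27ac 0.233% in control and 1.48% after kd. A TSS of any gene lay in 77.8% of domains and a protein-coding gene body in 83.3%. Among domains with a p-value of 0, 76.8% of bases were kept and 88.8% of domains kept at least 50%. The domains just inside the width limit, of 20200 bp (35 of them, nearest to Mbtps2, nearest to Cxcr3 and in Ulk4 for the 3 named), kept 57.4, 85.1 and 100%, and those just outside, of 20000 bp (Tcf24, Kcnip1 and Hand1), kept 66, 92 and 96%. The cause of these shifts was not tested.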

Other observations

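Noncoding genes also started in broad domains. As background, 2795 of the 53843 annotated genes of all types did so, and 7.49% of protein-coding genes. Of 5305 annotated lincRNA genes 263 did (4.96%), and 77.6% of these starts were still in a kd island. For antisense genes the numbers were 238 of 2958 (8.05%) with 85.3% still in a kd island, and for miRNA genes 106 of 2196 (4.83%) with 81.1%.

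Of the broad kd islands, 21 overlapped no control island. The widest measured 147600 bp and holds Gm21119 (chr8:20564601-20712200), and the next, of 79400 bp, holds Gm31371 (chr8:19903201-19982600). Islands of 34400 bp with Hjurp and Trpm8 and of 33800 bp with Sp110 and Sp140 lay on chromosome 1.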
